A study of Mus musculus with 2 samples.

Results

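Alveolar type 2 (AT2) cells of the newborn lung were described here from droplet sequencing of single cells. Members were chosen by their counts: unique molecular identifiers (UMIs) of mitochondrial genes were at most 10% of the cell's UMIs, *Sftpc* was at or above 300 UMIs per 10000, *Ager* was under 3 UMIs or under 20 per 10000, *Pecam1* was under 2 UMIs and *Col1a2* was under 3 UMIs. In all, 981 of 8003 filtered cells met the rule (12.3%, Wilson 95% interval 11.6% to 13.0%). They were 170 of 2388 cells in Batch 1 (7.12%, 6.15% to 8.22%) and 811 of 5615 cells in Batch 2 (14.4%, 13.5% to 15.4%). The intervals cover counting error over cells only.

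Whole lung of wild-type C57BL/6J mice was taken at postnatal day 1, with no treatment and no second genotype. The mice were female, there were 2 mice and 2 batches, and how mice fall into batches is not given in the sources used here. The matrices held 2389 and 7555 barcodes, none of them shared between the batches, and every barcode had at least 500 detected genes. The mitochondrial limit took out 1 cell of Batch 1 and 1940 cells of Batch 2. The 8003 cells that were left are as many as the study kept. Members had a median of 2083.5 UMIs and 908.5 genes in Batch 1 and of 3962 UMIs and 1512 genes in Batch 2, and the other filtered cells had medians of 1348 and 1853.5 UMIs. The median mitochondrial share of members was 1.71% and 6.13%. Summed over members, 417796 UMIs were available in Batch 1 and 4248522 in Batch 2, so that Batch 2 gave the firmer value for genes of low level.

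AT2 cells are the cuboidal secretory cells of the alveolus. They make surfactant, a film of phospholipid, cholesterol and 4 surfactant proteins that lowers surface tension at the air-liquid interface and without which the newborn lung collapses. Lipid and the hydrophobic proteins are packed in lamellar bodies, organelles related to lysosomes, and are released by exocytosis. AT2 cells also take up alveolar fluid, secrete host defence proteins and give rise to the flat alveolar type 1 (AT1) cells of the gas exchange surface. The factor NKX2-1 and members of the C/EBP family bind the promoters of several surfactant genes in this cell type.

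Promoters are shown for 3 genes whose products stand for surfactant and its handling, namely *Sftpb* and *Sftpa1*, which encode surfactant proteins B and A, and *Slc34a2*, the phosphate transporter of the AT2 cell. Each sequence holds the 250 bases before the RefSeq start in GRCm38.p6, on the + strand, at chr14:41131538-41131787 for *Sftpa1*, chr6:72304360-72304609 for *Sftpb* and chr5:53049103-53049352 for *Slc34a2*. Capitals mark the letters CTCAAG, a form of the NKX2-1 site, in the first pair and TTGCNNAA, a form of the C/EBP site, in the last.
Sftpa1: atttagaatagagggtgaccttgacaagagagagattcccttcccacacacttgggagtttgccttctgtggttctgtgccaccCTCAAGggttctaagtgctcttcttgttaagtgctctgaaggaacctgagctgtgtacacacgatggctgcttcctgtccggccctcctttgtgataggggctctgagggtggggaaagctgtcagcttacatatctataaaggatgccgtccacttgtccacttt
Sftpb: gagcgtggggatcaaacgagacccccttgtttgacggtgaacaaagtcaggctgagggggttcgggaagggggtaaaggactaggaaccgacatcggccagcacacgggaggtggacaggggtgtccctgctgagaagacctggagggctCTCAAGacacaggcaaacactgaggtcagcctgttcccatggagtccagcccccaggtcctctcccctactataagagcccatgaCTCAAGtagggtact
Slc34a2: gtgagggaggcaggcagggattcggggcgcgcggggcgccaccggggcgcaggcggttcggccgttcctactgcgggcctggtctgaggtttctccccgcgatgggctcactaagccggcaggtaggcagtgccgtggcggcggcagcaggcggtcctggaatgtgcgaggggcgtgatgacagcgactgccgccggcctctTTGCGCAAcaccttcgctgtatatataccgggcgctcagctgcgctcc

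CTCAAG was found 166 bases before the start of *Sftpa1* and 100 and 15 bases before the start of *Sftpb*. TTGCNNAA was found 48 bases before the start of *Slc34a2*, where the letters read the same on both strands. The motifs searched, on both strands, numbered 3. They were CTCAAG for NKX2-1, the longer form CACTTGA for the same factor, and TTGCNNAA for C/EBP, and the first 2 share the core CAAG, on opposite strands, and can overlap. Of 32851 mouse promoters of the same length, 13.3% held CTCAAG, 2.68% held the longer form, 9.56% held TTGCNNAA and 14.9% held either form for NKX2-1. Promoters were matched for 2 of 4 surfactant protein genes, and both held CTCAAG. Of 19 matched genes for lamellar bodies and surfactant processing, 3 held a form for NKX2-1 and 4 held TTGCNNAA. For 14 matched genes of secreted and host defence proteins the counts were 4 and 7, and for 20 matched genes of fatty acid and phospholipid synthesis they were 5 and 2. They were 3 and 2 for 15 matched cholesterol genes and 2 and 2 for 14 matched transcription factors of lung epithelium. The matched promoters of *Abca3*, *Lamp3*, *Lpcat1* and *Pla2g1b*, which are not shown, held none of the motifs. A gene with several promoters was counted when any of them held the letters, while the shares of the 32851 are per promoter. A match is a run of letters and was not tested for binding.

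The label was checked against the AT2 markers *Sftpc*, *Sftpb*, *Abca3* and *Napsa*. *Sftpc*, which encodes surfactant protein C (chr14:70520949-70524081, GRCm38), chose the members, and its summed level was 1216 and 687 UMIs per 10000 in members of Batch 1 and Batch 2 (values are given in this order throughout) and 63.3 and 57.8 in the other cells. The other 3 markers were not part of the rule. At least 1 UMI of *Sftpb* was found in 100% and 99.6% of members and in 8.88% and 12.6% of endothelial-gated cells. These have at least 2 *Pecam1* UMIs and serve as background, which can hold both free RNA and cells captured together. Summed over the surfactant protein genes, they had medians of 3.59 and 7.43 UMIs per 10000 and reached 378 and 387. *Napsa*, the protease that trims pro-surfactant proteins, was detected in 95.3% and 98.6% of members and 6.54% and 7.77% of endothelial-gated cells. *Abca3*, the lipid pump of the lamellar body membrane, was detected in 71.8% and 63.5% of members and 7.48% and 9.07% of endothelial-gated cells, whose median depth was 2028 and 2779 UMIs. With each cell thinned to 1000 UMIs, which 161 and 800 members reached, the shares of members were 98.8% and 96.8% for *Sftpb*, 87.0% and 86.8% for *Napsa* and 47.2% and 25.8% for *Abca3*. All 3 markers were therefore found in a far larger share of members than of endothelial-gated cells in both batches. The members are called AT2 cells below. This check does not separate members from cells rich in both *Sftpc* and *Ager*, which are compared further below.

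Endothelial, mesenchymal, immune and airway markers were lower in members than in the other cells of both batches. Summed over the list, endothelial markers stood at 2.94 and 0.751 UMIs per 10000, mesenchymal markers at 2.51 and 0.861, immune markers at 0.622 and 0.725 and airway cell markers at 3.18 and 2.51. The same lists stood at 31.3 and 38.9, 76.7 and 30.2, 9.27 and 21.6 and 12.3 and 79.8 in the other cells. The endothelial sum includes *Pecam1* and the mesenchymal sum *Col1a2*, which the rule limits in members. *Pecam1* stood at 0.144 and 0.0471 in members and 2.36 and 3.44 in the other cells. *Col1a2* stood at 0.598 and 0.148 in members and 20.2 and 8.96 in the other cells. Haemoglobin and other erythroid genes reached 616 and 46.2 per 10000 in members and 702 and 183 in the other cells, so that erythroid RNA was high throughout Batch 1. Single members of Batch 1 ran from 36.0 to 6417 per 10000 for this list, with a median of 211. The 5 erythroid genes had a median log2 fold change of -0.60 between members and other cells in the fit described next, and the part of erythroid RNA in the results was not tested. AT1 markers stood at 17.2 and 41.8 in members, 30.4 and 39.4 in the other cells and 220 and 207 in AT1-gated cells. Members of Batch 2 were thus not below the other cells for this list. The sum includes *Ager*, which chose both members and AT1-gated cells. *Ager* stood at 6.41 and 7.85 in members and 7.01 and 6.13 in the other cells.

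**Figure D1:**
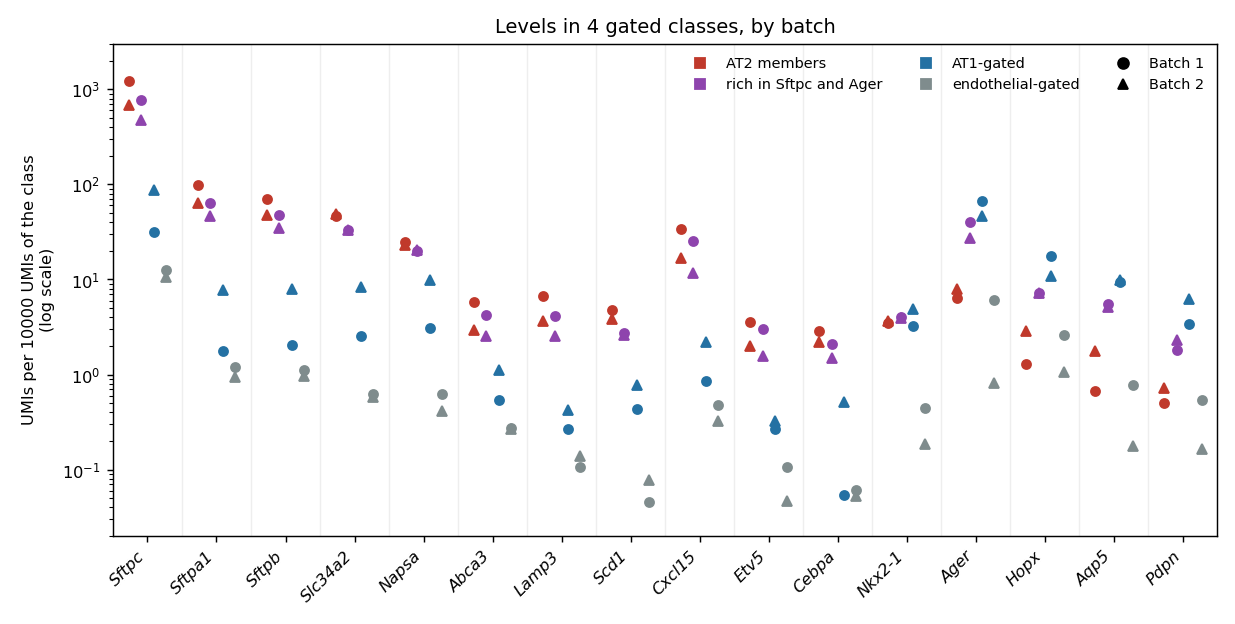
Level of 16 genes in UMIs per 10000 (log axis) in AT2 members, cells rich in *Sftpc* and *Ager*, AT1-gated cells and endothelial-gated cells. Each point is the summed counts of 1 batch. *Sftpb* stood at 70.1 and 47.4 in members and 2.04 and 7.90 in AT1-gated cells. *Hopx* stood at 1.29 and 2.87 in members and 17.8 and 10.8 in AT1-gated cells.

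Members were first compared with all other filtered cells of the same batch, by edgeR's quasi-likelihood test on counts summed per class and batch, with the batch as block and n = 2 batches. Of 13202 genes tested, 1378 (10.4%) were higher in members and 1895 (14.4%) were lower at a Benjamini-Hochberg adjusted p under 0.05, which is the threshold throughout. The median log2 fold change over all genes was -0.06. Of the genes called, 1371 of 1378 and 1885 of 1895 had the same sign in both batches. The test favours genes whose differences agree between the batches, so such counts are no separate support, here or below. Without the batch as block 537 were higher and 1030 lower, DESeq2 gave 746 and 1116, cells thinned to 1000 UMIs 907 and 1016, and a mitochondrial limit of 5% 618 and 781. *Sftpc*, *Ager*, *Pecam1* and *Col1a2* chose the members and are not counted. A sum over cells cannot tell a higher level per cell from more cells with the transcript, which is why shares of cells are given for the markers.

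Surfactant protein genes were the group furthest above the other cells. All 3 tested genes of the list were higher, with a median log2 fold change of 4.21. *Sftpa1*, whose product is a collagen-like lectin of the airspace (chr14:41131782-41136452), stood at 97.5 and 63.7 UMIs per 10000 in members against 5.25 and 5.63 in the other cells (log2 fold change 4.31 ± 0.23 SE, adjusted p = 0.0023). *Sftpb*, whose product is required for lamellar bodies and the surface film (chr6:72304610-72314371), stood at 70.1 and 47.4 against 3.88 and 4.68 (log2 fold change 4.21 ± 0.26 SE, adjusted p = 0.0023). *Sftpd*, which encodes the other lectin (chr14:41172214-41185149), stood at 41.3 and 33.6 against 2.83 and 5.35 (log2 fold change 3.71 ± 0.35 SE, adjusted p = 0.0042). In each of the 3 genes both member values lay above both values of the other cells.

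Genes of the lamellar body, the lysosome and surfactant processing were largely higher too, 18 of 24 tested being called higher and 1 lower (median log2 fold change 2.62). *Slc34a2* stood at 46.3 and 48.4 in members against 2.62 and 4.17 (log2 fold change 4.29 ± 0.21 SE, adjusted p = 0.0023). *Lamp3*, a membrane protein of lamellar bodies, stood at 6.63 and 3.67 against 0.384 and 0.351 (log2 fold change 4.19 ± 0.27 SE, adjusted p = 0.0023). *Abca3* stood at 5.74 and 2.95 against 0.488 and 0.523 (log2 fold change 3.46 ± 0.33 SE, adjusted p = 0.0044). Each of these genes was higher in members of both batches, as was the enzyme that remodels surfactant phosphatidylcholine, *Lpcat1*, at 14.9 and 14.0 against 1.26 and 1.63. *Napsa* (log2 fold change 3.77), *Dram1* (4.01), *Npc2* (3.45), which encodes a sterol carrier of the lysosome, and the cathepsin gene *Ctsh* (3.28) were higher too. The exception was *Psap*, the precursor of the saposins that assist lysosomal lipid breakdown, which stood at 0.622 and 0.447 in members against 2.66 and 2.11 in the other cells (log2 fold change -1.73 ± 0.20 SE, adjusted p = 0.0064).

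Lipid synthesis genes were higher in members as well. In the fatty acid and phospholipid list 15 of 25 were higher and 1 lower (median log2 fold change 1.83). *Scd1*, the desaturase that makes monounsaturated fatty acids, stood at 4.81 and 3.86 against 0.237 and 0.342 (log2 fold change 4.34 ± 0.30 SE, adjusted p = 0.0025). *Fabp5*, a carrier of fatty acids, stood at 11.0 and 6.66 against 0.747 and 0.868 (log2 fold change 3.85 ± 0.30 SE, adjusted p = 0.0031). *Fasn*, fatty acid synthase, stood at 2.49 and 2.00 against 0.316 and 0.334 (log2 fold change 3.21 ± 0.23 SE, adjusted p = 0.0025). *Srebf1*, which encodes the main activator of this pathway, was higher by a log2 fold change of 2.29 ± 0.22 SE, adjusted p = 0.0046. The elongase gene *Elovl6* went the other way, with 0 and 2 UMIs in members and 47 and 84 in the other cells. No fold is given for it because so few UMIs were counted.

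In the cholesterol list 13 of 20 tested genes were higher and none was lower (median log2 fold change 1.56). *Pmvk*, of the mevalonate pathway, stood at 1.53 and 7.75 against 0.346 and 1.15 (log2 fold change 2.93 ± 0.20 SE, adjusted p = 0.0025). *Insig1* and *Srebf2*, regulators of sterol synthesis, were higher by log2 fold changes of 2.65 and 2.02. The remaining 7 genes were not called.

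**Figure D2:**
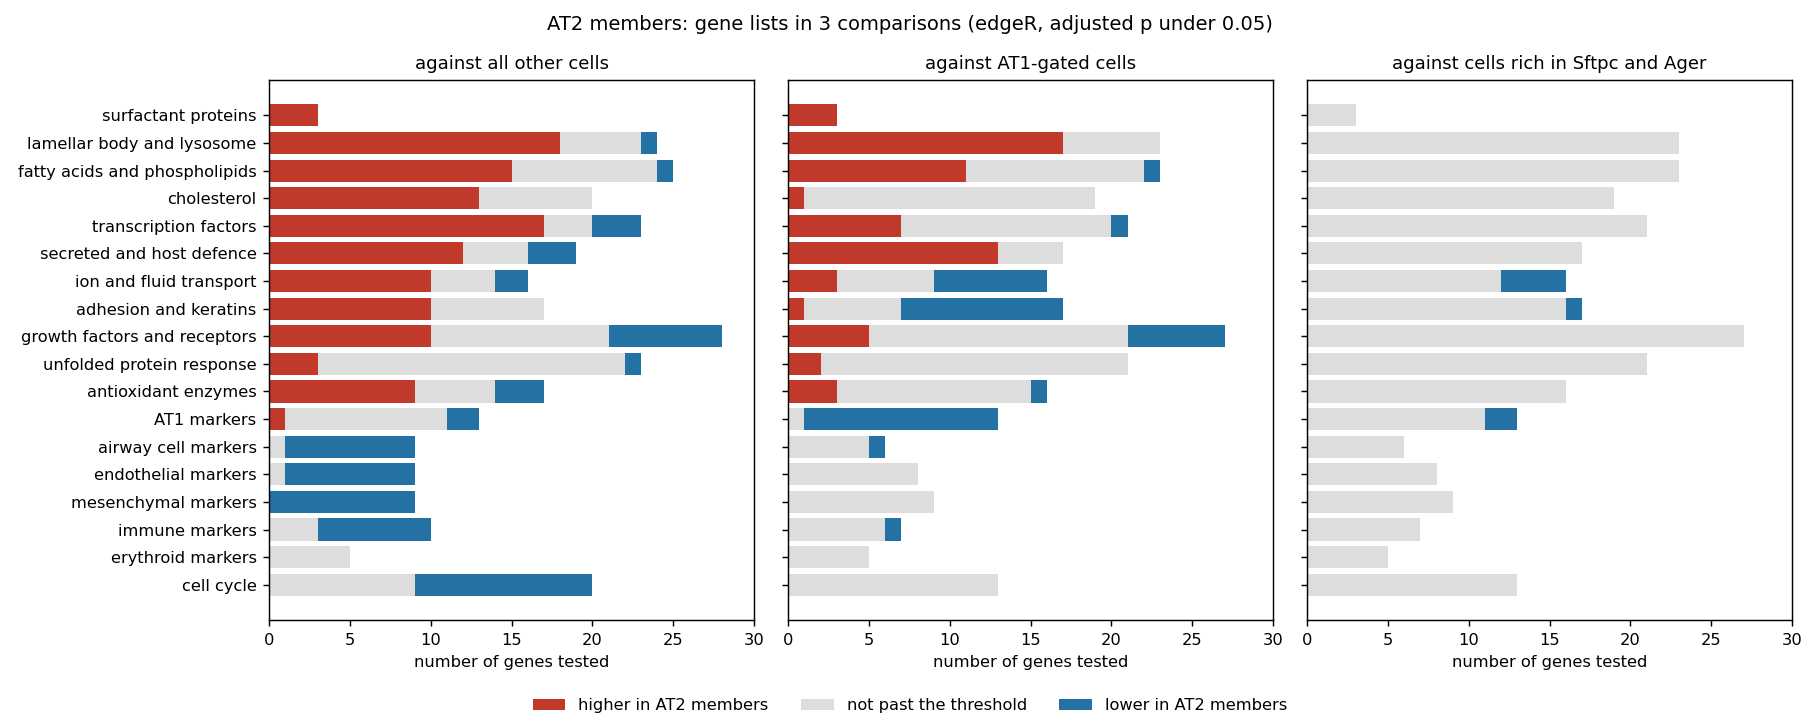
Number of tested genes of each of 18 lists that were higher, lower or not called (adjusted p under 0.05) in AT2 members, for the comparisons with all other cells, with AT1-gated cells and with cells rich in *Sftpc* and *Ager*; the 4 genes of the rule are left out. In the lamellar body list 18 of 24 genes were higher against all other cells and 17 of 23 against AT1-gated cells, and 12 of 13 AT1 markers were lower against AT1-gated cells.

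Among transcription factors of the lung epithelium, 17 of 23 tested were higher in members and 3 were lower (median log2 fold change 2.16). *Etv5*, a factor downstream of FGF signalling, stood at 3.54 and 1.99 UMIs per 10000 against 0.301 and 0.214 (log2 fold change 3.83 ± 0.22 SE, adjusted p = 0.0023). *Cebpa* stood at 2.90 and 2.2 against 0.212 and 0.312 (log2 fold change 3.70 ± 0.32 SE, adjusted p = 0.0035). *Nkx2-1* stood at 3.52 and 3.68 against 0.560 and 1.04 (log2 fold change 2.66 ± 0.28 SE, adjusted p = 0.0053). These 3 were higher in both batches, and so were *Tfcp2l1* (log2 fold change 3.92), *Rbpjl* (3.73), *Elf5* (3.67), *Sox9* (2.95) and *Foxa2* (2.16). *Nfib*, which is used in many lung lineages, was lower at 1.08 and 1.33 against 6.30 and 4.15 (log2 fold change -1.60 ± 0.24 SE, adjusted p = 0.012), and the other two that were lower, *Foxj1* and *Sox2*, belong to airway cells. *Hopx* was not called (log2 fold change 0.35 ± 0.28 SE, adjusted p = 0.41).

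Secreted and host defence genes gave 12 higher and 3 lower of 19 tested (median log2 fold change 2.86). *Cxcl15*, lungkine, a chemokine of lung epithelium, stood at 33.7 and 16.7 against 1.86 and 1.60 (log2 fold change 4.23 ± 0.26 SE, adjusted p = 0.0023). *Lyz2* stood at 40.7 and 10.5 against 6.09 and 2.49 (log2 fold change 2.86 ± 0.22 SE, adjusted p = 0.003). Reads of *Lyz1* and *Lyz2* can be assigned to either copy, so the pair counts as 1 uncertain signal of lysozyme. *Hc*, complement component C5, was higher by 3.89, *S100g* by 4.13 and *Chi3l1* by 4.07 on the log2 scale. *Il33*, an alarmin, was higher by 2.87 ± 0.63 SE, adjusted p = 0.031, on 64 UMIs in members of Batch 1 and 36 in Batch 2. *Scgb3a2*, *Scgb3a1* and *Il18* were lower, and the first 2 of them are secretoglobins of airway club cells. Among genes of no list, the rule for the largest changes named *Bex2*, at 10.3 and 3.63 against 0.528 and 0.325 (log2 fold change 4.33 ± 0.28 SE, adjusted p = 0.0024), with *Egfl6* (4.23) and *Lgi3* (4.23) of the secreted list close behind.

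Of genes for ion and fluid transport, 10 of 16 were higher and 2 lower (median log2 fold change 1.81). *Cftr*, the chloride channel, stood at 0.598 and 0.386 against 0.0772 and 0.0608 (log2 fold change 3.22 ± 0.29 SE, adjusted p = 0.0038). *Scnn1a*, the alpha subunit of the epithelial sodium channel, stood at 1.36 and 3.33 against 0.648 and 1.77 (log2 fold change 1.43 ± 0.18 SE, adjusted p = 0.0079). *Slc26a9* (4.13) and the sodium pump subunit *Atp1b1* (3.04) were also higher. *Aqp1*, the water channel of endothelium, was lower (-1.85), as was *Sgk1* (-1.58), the kinase that raises sodium channel activity. Of epithelial adhesion and keratin genes, 10 of 17 were higher and none lower (median log2 fold change 1.42), among them *Muc1* (3.50), *Epcam* (2.38), *Cldn18* (1.82) and *Krt8* (0.87).

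Growth factor signals and receptors went in both directions, 10 of 28 being higher and 7 lower (median log2 fold change 0.71). *Dlk1*, a Notch pathway ligand, stood at 8.62 and 16.0 in members against 1.01 and 1.55 (log2 fold change 3.69 ± 0.15 SE, adjusted p = 0.0023). *Fgfr2*, the receptor through which FGFs act on lung epithelium, stood at 2.78 and 1.85 against 0.254 and 0.338 (log2 fold change 3.36 ± 0.33 SE, adjusted p = 0.0046). *Csf2*, which encodes the growth factor GM-CSF, had 18 and 52 UMIs in members and 19 and 17 in the other cells (log2 fold change 3.70 ± 0.34 SE, adjusted p = 0.0042). *Areg*, a ligand of the EGF receptor (2.52), *Met*, the receptor of hepatocyte growth factor (2.32), and *Shh* (1.72) were higher in members too. The lower genes were *Kdr*, *Csf1*, *Spry4*, *Pdgfb*, *Notch1*, *Igf1r* and *Fgfr3*.

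Most genes of the unfolded protein response were not called, and neither were most of all genes tested. Of 23 in the list, 3 were higher and 1 lower, with a median log2 fold change of 0.24. Over all 13202 genes tested, 10.4% were higher and 14.4% lower. *Herpud1*, which takes part in degradation of misfolded proteins, stood at 1.17 and 3.96 against 0.521 and 1.00 (log2 fold change 2.07 ± 0.24 SE, adjusted p = 0.0066). *Xbp1*, a transcription factor of this response, stood at 0.263 and 0.297 against 1.2 and 1.07 (log2 fold change -1.53 ± 0.23 SE, adjusted p = 0.012). The chaperone gene *Hspa5* stood at 1.68 and 2.61 against 3.28 and 4.12 and was not called (log2 fold change -0.35 ± 0.16 SE, adjusted p = 0.18). Of 17 antioxidant genes, 9 were higher and 3 lower, with *Gclc*, of glutathione synthesis, at 1.58 and 2.1 against 0.259 and 0.657 (log2 fold change 2.54 ± 0.31 SE, adjusted p = 0.007), *Cat*, catalase (2.30), *Mt1*, a metallothionein (2.34), and, among the lower ones, *Gpx3* (-4.78).

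Cell cycle genes were lower in members, 11 of 20 being called lower and none higher. Their summed level was 2.23 and 4.32 UMIs per 10000 in members against 9.75 and 13.7 in the other cells. *Top2a*, of chromosome segregation, stood at 0 and 0.0494 against 0.413 and 0.808 (log2 fold change -3.78 ± 0.47 SE, adjusted p = 0.0051) and *Mki67* at 0.0718 and 0.0800 against 0.219 and 0.606 (log2 fold change -2.28 ± 0.41 SE, adjusted p = 0.016). Markers of the other lineages were lower in members for 8 of 9 endothelial, 9 of 9 mesenchymal, 8 of 9 airway and 7 of 10 immune genes tested. Among AT1 markers, 1 of 13 was higher, *Gprc5a*, and 2 were lower, *Cav1* and *Igfbp2*. The genes furthest below the other cells included *Col1a1* at 0.168 and 0.0377 against 8.95 and 2.27, *Eln*, elastin, at 0.0239 and 0.0424 against 1.94 and 1.83, and *Hoxa5* at 0.0479 and 0.0141 against 1.29 and 1.2.

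Members were next compared with AT1-gated cells, the other alveolar epithelial type. These cells have *Sftpc* under 300 UMIs per 10000 and *Ager* at or above both 3 UMIs and 20 per 10000, with the same limits on the other genes, and number 92 in Batch 1 and 326 in Batch 2. Of 10114 genes tested, 460 (4.55%) were higher in members and 445 (4.4%) lower, all with the same sign in both batches, and the median log2 fold change over all genes was 0.01. Without the block 55 were higher and 56 lower, a fit of the 2 classes alone gave 290 and 311, and a *Sftpc* limit of 500 per 10000 gave 177 and 331. Summed over the 10 endothelial markers, AT1-gated cells stood at 18.3 and 1.76 UMIs per 10000 and members at 2.94 and 0.751. *Pecam1*, limited in both classes, is among these markers. The part of endothelial RNA in this comparison was not tested.

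Surfactant and its processing set members apart from AT1-gated cells as well. All 3 tested surfactant genes were higher (median log2 fold change 3.86), with *Sftpa1* at 1.77 and 7.82 in AT1-gated cells (log2 fold change 4.31 ± 0.61 SE, adjusted p = 0.0038) and *Sftpb* at 2.04 and 7.90 (log2 fold change 3.86 ± 0.55 SE, adjusted p = 0.0041). AT1-gated cells thus held more surfactant RNA in Batch 2 than in Batch 1. Of lamellar body and processing genes, 17 of 23 were higher and none lower (median 1.74), *Lamp3* standing at 6.63 and 3.67 in members and 0.269 and 0.425 in AT1-gated cells (log2 fold change 3.87 ± 0.36 SE, adjusted p = 0.00093). Of secreted genes 13 of 17 were higher and none lower (median 3.40). *Lyz2* stood at 40.7 and 10.5 against 0.215 and 1.40 (log2 fold change 4.41 ± 0.77 SE, adjusted p = 0.0086), *Retnla* at 6.75 and 1.2 against 0.0537 and 0.185 (log2 fold change 4.21 ± 0.85 SE, adjusted p = 0.015) and *Cxcl15* at 33.7 and 16.7 against 0.860 and 2.18 (log2 fold change 4.11 ± 0.55 SE, adjusted p = 0.0029).

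Of the lipid lists, that of fatty acids held most of the calls against AT1-gated cells. Of fatty acid and phospholipid genes, 11 of 23 were higher and 1 lower (median log2 fold change 1.32). *Fabp5* stood at 11.0 and 6.66 against 0.484 and 0.784 (log2 fold change 3.91 ± 0.38 SE, adjusted p = 0.001) and *Scd1* at 4.81 and 3.86 against 0.430 and 0.773 (log2 fold change 3.01 ± 0.32 SE, adjusted p = 0.0014). *Elovl5*, an elongase of polyunsaturated fatty acids, was the lower one (-1.15). Of cholesterol genes, 1 of 19, *Pmvk*, was higher (log2 fold change 1.57 ± 0.37 SE, adjusted p = 0.028) and none was lower, with a median of 0.26. *Insig1* stood at 1.84 and 2.54 in members and 1.13 and 1.70 in AT1-gated cells (log2 fold change 0.90 ± 0.25 SE, adjusted p = 0.055). The difference between the lists was not tested.

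**Figure D3:**
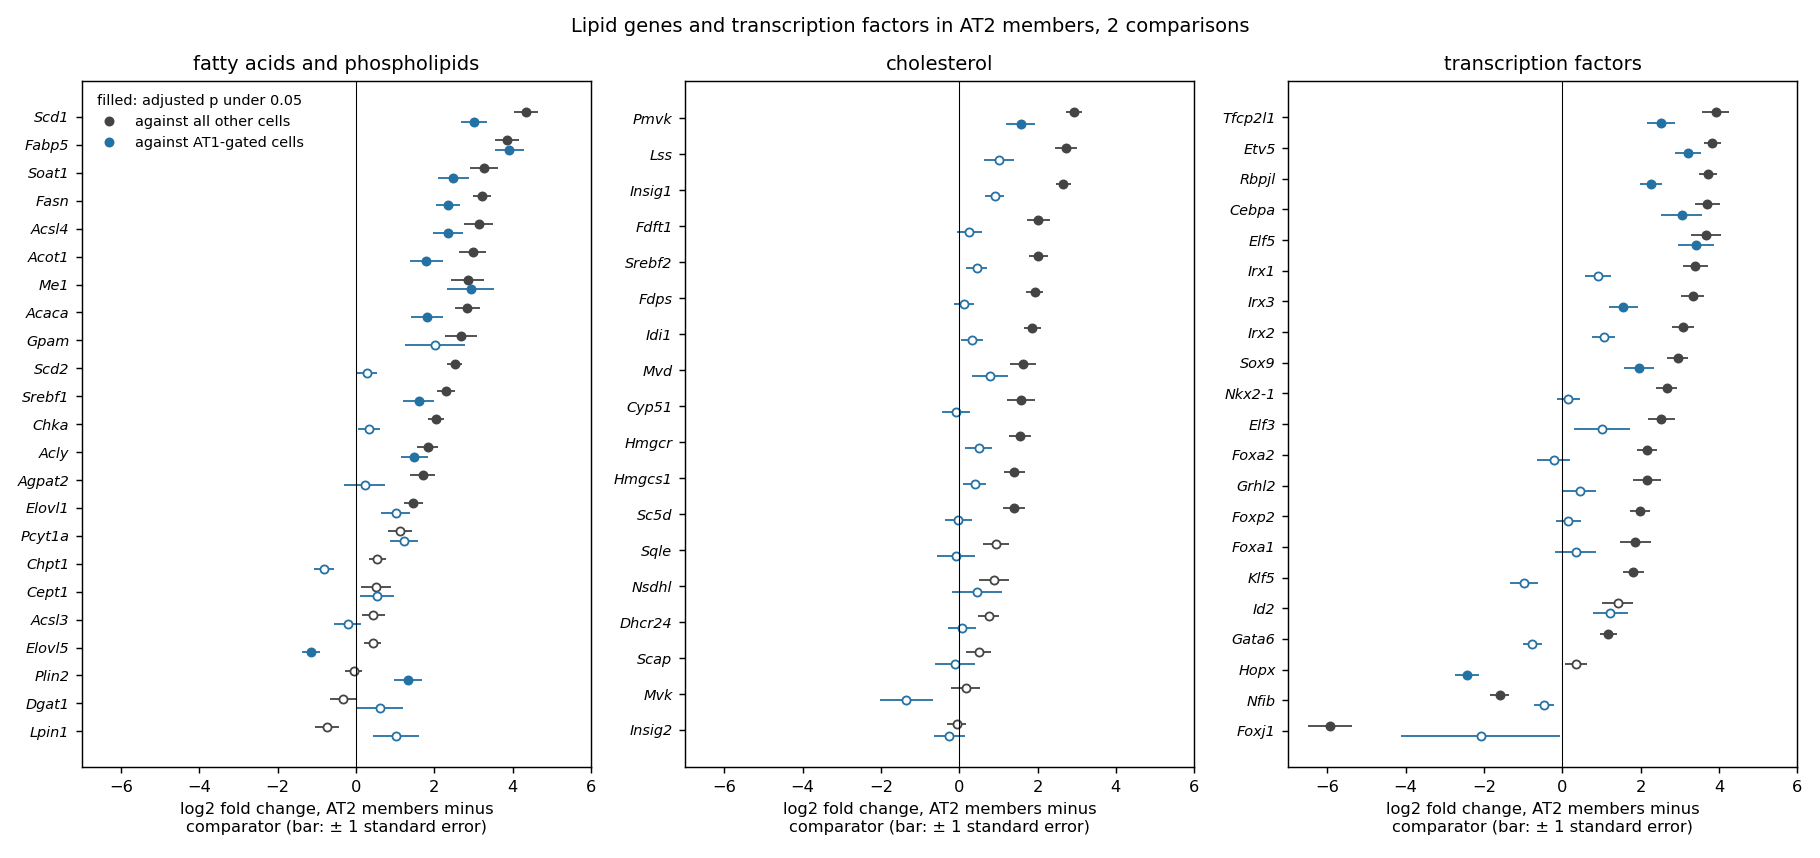
Log2 fold change of members against all other cells and against AT1-gated cells for lipid genes and transcription factors tested in both; bars are standard errors of the fit and filled points have an adjusted p under 0.05. *Etv5* stood at 3.83 and 3.20 in the 2 comparisons and *Nkx2-1* at 2.66 and 0.15, while the point of *Foxj1* rests on 3 UMIs in members.

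Of the epithelial transcription factors, 7 of 21 were higher in members than in AT1-gated cells and 1 was lower (median log2 fold change 0.90). The higher ones were *Elf5*, *Etv5*, *Cebpa*, *Tfcp2l1*, *Rbpjl*, *Sox9* and *Irx3*. *Etv5* stood at 3.54 and 1.99 in members against 0.269 and 0.327 (log2 fold change 3.20 ± 0.33 SE, adjusted p = 0.0011). *Cebpa* stood at 2.90 and 2.2 against 0.0537 and 0.512 (log2 fold change 3.05 ± 0.53 SE, adjusted p = 0.0084), and *Elf5* at 1.51 and 1.29 against 0.107 and 0.185 (log2 fold change 3.41 ± 0.46 SE, adjusted p = 0.0031). *Nkx2-1*, which acts in both alveolar types, stood at 3.52 and 3.68 in members and 3.28 and 4.83 in AT1-gated cells, higher in members in Batch 1 and lower in Batch 2 (log2 fold change 0.15 ± 0.30 SE, adjusted p = 0.83). *Hopx*, a homeobox gene of AT1 cells (chr5:77086988-77115121), was the lower one, at 1.29 and 2.87 against 17.8 and 10.8 (log2 fold change -2.44 ± 0.31 SE, adjusted p = 0.0024).

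Members were below AT1-gated cells in much of the apparatus of barrier and fluid uptake. Of 17 adhesion and keratin genes, 1 was higher and 10 were lower (median log2 fold change -1.24), *Muc1* being the higher one (2.36). *Cldn18*, a tight junction protein of alveolar epithelium, stood at 8.66 and 9.38 against 31.1 and 26.6 (log2 fold change -1.36 ± 0.15 SE, adjusted p = 0.0017). *Krt7* stood at 0.957 and 2.13 against 9.67 and 11.8 (log2 fold change -2.55 ± 0.22 SE, adjusted p = 0.00087). Of 16 ion and fluid genes, 3 were higher and 7 lower (median 0.07). All 3 sodium channel subunits were lower in members, with *Scnn1a* at 1.36 and 3.33 against 5.53 and 8.53 (log2 fold change -1.37 ± 0.32 SE, adjusted p = 0.03), *Scnn1b* at a log2 fold change of -2.59 and *Scnn1g* at -3.04. The water channel *Aqp5* stood at 0.670 and 1.78 against 9.46 and 9.94 (log2 fold change -2.70 ± 0.29 SE, adjusted p = 0.0014). The chloride transport genes *Cftr* (2.15) and *Slc26a9* (3.16) were higher in members.

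Growth factor genes gave 5 higher and 6 lower of 27 (median log2 fold change -0.51, which *Csf2* at its bound leaves in place). *Dlk1* stood at 8.62 and 16.0 against 0.215 and 2.13 (log2 fold change 3.62 ± 0.55 SE, adjusted p = 0.0052) and *Fgfr2* at 2.78 and 1.85 against 0.0537 and 0.577 (log2 fold change 2.69 ± 0.58 SE, adjusted p = 0.021). *Axin2*, a target of Wnt signalling (2.03), and *Areg* (2.17) were higher in members. *Csf2* had 70 UMIs in members and none in AT1-gated cells of either batch, which puts it at least 5.52-fold higher in members when the AT1 total is set to the limit of 3 UMIs over the group. *Vegfa*, the growth factor of endothelium, stood at 1.24 and 2.07 in members against 13.5 and 9.71 (log2 fold change -2.39 ± 0.35 SE, adjusted p = 0.0041), and *Pdgfa* (-1.68) and *Egfr* (-1.82) were lower with it. Of the remaining lists, 2 of 21 unfolded protein response genes were higher, *Herpud1* (1.60) and *Nfe2l2* (1.08). Of 16 antioxidant genes, 3 were higher and 1, *Prdx6* (-1.35), was lower.

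AT1 markers were lower in members for 12 of 13 genes tested (median log2 fold change -2.69). The gate gene *Ager* (chr17:34597862-34600936) is left out of this count and stood at 6.41 and 7.85 in members and 66.6 and 46.6 in AT1-gated cells. *Clic5* stood at 0.407 and 3.09 against 16.4 and 21.0 (log2 fold change -3.43 ± 0.41 SE, adjusted p = 0.0018), *Pdpn*, podoplanin, at 0.503 and 0.718 against 3.39 and 6.23 (log2 fold change -2.69 ± 0.44 SE, adjusted p = 0.0066), and *Cav1*, the coat protein of caveolae, at 0.527 and 0.958 against 10.5 and 8.46 (log2 fold change -3.38 ± 0.27 SE, adjusted p = 0.00087). The genes of no list furthest below AT1-gated cells were *Msln*, mesothelin, at 0.335 and 1.04 against 11.6 and 13.3 (log2 fold change -3.80 ± 0.41 SE, adjusted p = 0.0014), *Spock2* (-3.71) and *S100a6* (-3.58). Cell cycle genes summed to 2.23 and 4.32 in members and 4.73 and 3.06 in AT1-gated cells. None of the 13 tested was called, where 8.95% of all genes were.

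The third comparison was with cells rich in both *Sftpc* and *Ager*, which differ from members by the *Ager* limit alone and number 56 and 158. Of 10114 genes, edgeR called none higher in members (0%), where 253 had an unadjusted p under 0.05 and DESeq2 called 4, and 22 (0.218%) lower. A fit of these 2 classes alone called 102 higher and 280 lower. A fit without the batch block called none in either direction (109 higher and 291 lower at an unadjusted p under 0.05), and with a *Sftpc* limit of 500 per 10000 none was called either (288 and 407 at an unadjusted p under 0.05), so that the calls named below are lost under both of these settings. DESeq2 called 94 lower, 21 of the 22 among them. The cells rich in both had more UMIs than members, with medians of 3169.5 and 5159, and with each cell thinned to 1000 UMIs the counts were 1 higher and 35 lower.

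All 8 genes named by the rule for the largest changes were lower in members. *Msln* stood at 0.335 and 1.04 in members against 5.45 and 6.17 (log2 fold change -2.87 ± 0.40 SE, adjusted p = 0.03), *S100a6*, a calcium-binding protein, at 1.53 and 5.43 against 20.6 and 25.3 (log2 fold change -2.70 ± 0.32 SE, adjusted p = 0.03), and *Spock2*, an extracellular proteoglycan, at 0.191 and 0.718 against 1.61 and 3.76 (log2 fold change -2.40 ± 0.31 SE, adjusted p = 0.03). The others were *Gipc2* (-2.33), *Scnn1g* (-2.33), *Slc6a14* (-2.08), *Ahnak* (-2.05) and *2200002D01Rik* (-2.02). Of the lists, 4 of 16 ion and fluid genes were lower (*Scnn1g*, *Slc6a14*, *Aqp5* and *Aqp1*), 1 of 17 adhesion genes (*Krt7*, -1.72) and 2 of 13 AT1 markers (*Aqp5* and *Cav1*). *Aqp5* stood at 0.670 and 1.78 against 5.50 and 5.1 (log2 fold change -2.0 ± 0.29 SE, adjusted p = 0.034). *Hopx* stood at 1.29 and 2.87 against 7.25 and 7.13 and missed the threshold (log2 fold change -1.64 ± 0.30 SE, adjusted p = 0.073).

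Surfactant RNA in the cells rich in both lay between members and AT1-gated cells. *Sftpa1* stood at 63.3 and 46.2 in the cells rich in both (log2 fold change of members 0.73 ± 0.52 SE, adjusted p = 0.84) and *Sftpb* at 47.5 and 35.2 (log2 fold change 0.68 ± 0.48 SE, adjusted p = 0.84). *Napsa* stood at 24.5 and 22.9 in members and 19.9 and 20.2 in the cells rich in both (log2 fold change 0.41 ± 0.38 SE, adjusted p = 0.88). In all 3 surfactant genes members were higher in each batch, without passing the threshold, and AT1-gated cells were lowest.

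Members varied among themselves in *Sftpc*, and cells grouped by it are described here with no test, since *Sftpc* chose them. In Batch 2, 20 cells lay just outside the limit, at 200 to 300 UMIs per 10000, and 41 lay just inside, at 300 to 400, while 195 were at 400 to 600, 410 at 600 to 1000 and 165 above 1000. Batch 1 had 3 cells just outside, 1 just inside and 135 above 1000. From the cells just outside to those above 1000 in Batch 2, *Sftpa1* went from 27.2 to 106 UMIs per 10000, *Sftpb* from 27.8 to 61.5, *Napsa* from 12.0 to 28.9 and *Lyz2* from 9.40 to 23.0. The first 3 of these genes were higher in each successive band, and *Lyz2* was lowest, at 5.40, in the band just inside the limit. *Hopx* went from 4.36 to 0.781 and *Ager* from 9.10 to 4.05 over the same bands, with the highest *Ager* level, 12.3, in the cells just inside the limit. Those 41 cells also had a median of 8482 UMIs, against 3036 in the cells above 1000, so depth moved with the band and its part was not tested.

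**Figure D4:**
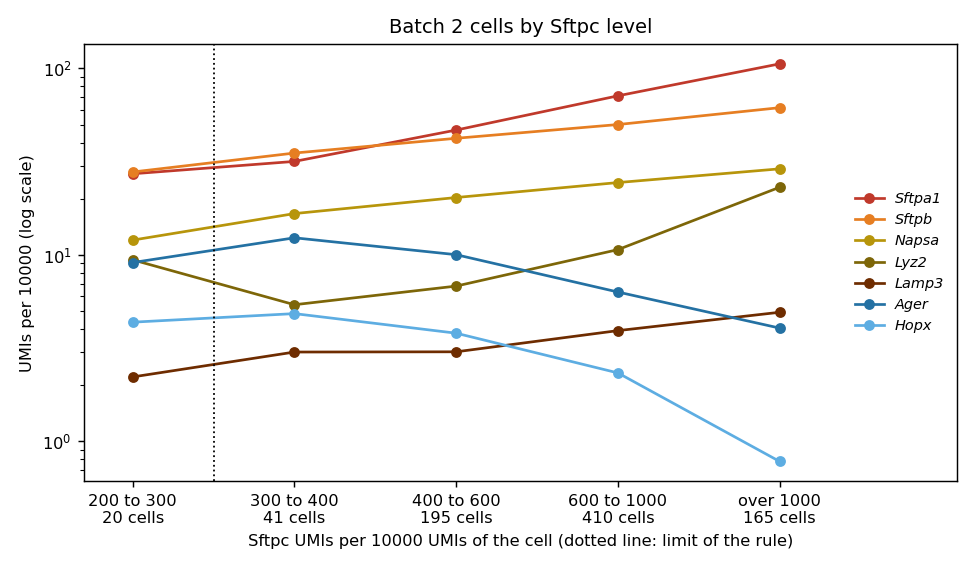
Level of 7 genes in UMIs per 10000 (log axis) in Batch 2 cells grouped by their *Sftpc* level, from the band just outside the limit (20 cells) to the band above 1000 (165 cells). *Sftpa1* runs from 27.2 to 106 and *Hopx* from 4.36 to 0.781.

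*Ager* was detected in most members, within the limit of the rule. At least 1 *Ager* UMI was found in 111 members of Batch 1 (65.3%) and 608 of Batch 2 (74.97%), against 11.2% and 10.1% of endothelial-gated cells. At least 3 UMIs were found in 45 members (26.5%) and 329 (40.6%), and the summed level was 6.41 and 7.85 UMIs per 10000 in members and 7.01 and 6.13 in the other cells. A rule asking for no *Ager* UMI would leave 262 of the 981 members, or 3.27% of the filtered cells.

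Levels in members differed between the batches, and with 1 sample of each no test of this is possible. Of 742 genes with at least 200 CPM (100 CPM is 1 UMI per 10000) in 1 batch, 120 were at least 2-fold higher in Batch 2 and 30 in Batch 1. For 142 of these 150 genes the other cells differed in the same direction, and for 74 of them by at least 2-fold. The immediate early genes *Fos* and *Junb* stood at 0.144 and 9.71 and at 0.263 and 3.40 UMIs per 10000, and *Zfp36* at 0.239 and 3.55. *Cyr61* had 0 and 914 UMIs, a level at least 29.96-fold higher in Batch 2 when Batch 1 is set to 3 UMIs, and *Egr1* had 1 and 1759. Mitochondrial ribosomal RNA, *mt-Rnr2*, stood at 26.5 and 475. In the other cells *Fos* stood at 1.64 and 12.4 and *mt-Rnr2* at 25.6 and 403, so these genes moved with the batch outside the members too.

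Of the 30 genes higher in Batch 1, the 6 with the largest differences were the 4 haemoglobin genes, which include near-identical copies, *Retnla* at 6.75 and 1.2 and *Chi3l1* at 7.06 and 1.65. *Chi3l1* stood at 0.264 and 0.272 in the other cells, where the batches lay close together. Lysozyme followed the same direction, with *Lyz2* at 40.7 and 10.5 in members and 6.09 and 2.49 in the other cells. *Dlk1* stood at 8.62 and 16.0, *Herpud1* at 1.17 and 3.96, *Tfcp2l1* at 1.36 and 2.63 and *Areg* at 0.287 and 1.14, all higher in Batch 2. *Slc34a2* (46.3 and 48.4) and *Napsa* (24.5 and 22.9) were close in the 2 batches. Depth and mitochondrial share change with the batch and cannot be told apart from it. How the mice fall into the batches is not given, so a part of the mouse cannot be told apart either.

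**Figure D5:**
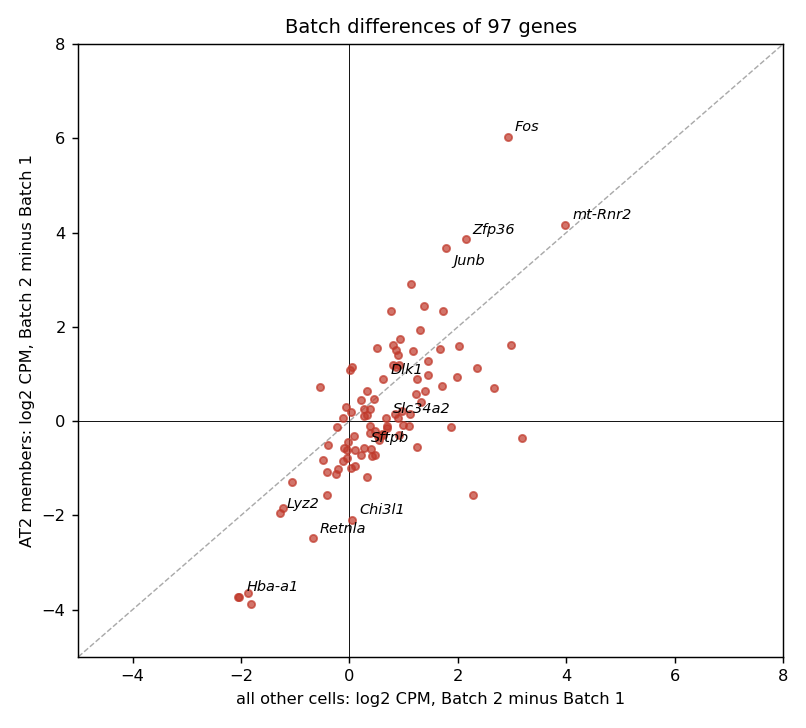
Difference in log2 CPM between Batch 2 and Batch 1 in AT2 members (vertical axis) and in all other cells (horizontal axis) for 97 genes of the lists or of the largest differences, each at 200 CPM or more in members of 1 batch and with at least 4 UMIs in each, with no test. *Fos* stands at 6.03 in members and 2.92 in the other cells, and *Chi3l1* at -2.09 and 0.04.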

How the data were processed

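Whole lung cells of 2 newborn mice were profiled by Drop-seq, in which barcoded beads mark the transcripts of a cell and a UMI marks each molecule. The authors deposited UMI counts per gene and cell for each batch as whole numbers, without normalization. To make them, the authors aligned reads to mm10 with bowtie2 2.2.7, which does not align across splice junctions, and counted UMIs over exons with Drop-seq tools, so that near-identical genes can share reads. Nothing in the labels but the batch separates the samples. With the batch as block, p-values rest on how class differences vary between these 2, not on the difference between the batches. The fit against all other cells left 1 residual degree of freedom, and the fit for the other comparisons left 3. A prior shared over genes added 4.07 and 6.71 to these.

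The members and the gene lists were chosen with earlier results of these data known. No doublet caller was run; the limits on *Pecam1* and *Col1a2* remove only some cells captured together. Counts were summed by class and batch. In R 4.3.3, edgeR 4.0.16 fitted 4 sums for members against other cells, and 8 sums of 4 classes for the other comparisons, with TMM, filterByExpr and the Benjamini-Hochberg adjustment. The adjusted quasi-likelihood dispersions of newer edgeR (legacy=FALSE) were chosen after the data were seen, because the older ones gave an unbounded prior with 4 sums. The batch was the replicate block, since the labels give the batch that sums share; deviations from the class means correlated by 0.336 between members and other cells and by 0.254 to 0.357 between classes. Levels are UMIs of a gene per 10000 UMIs of the class. Between the batches, log2 CPM (prior count 2) were compared with no test. Shares carry Wilson 95% intervals, and thinning drew 1000 UMIs per cell with a seed of 1.

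Genes named were those of the lists, for each comparison up to 8 genes in each direction with the largest change among those past the threshold, at 100 CPM or more in the higher class and of 1 sign in both batches, and for the batches 6 genes in each direction at 200 CPM or more. Promoters came from RefSeq (GRCm38.p6) and gene positions from GENCODE for GRCm38. Python 3.11.15 with numpy 2.4.6 and pandas 2.3.3 was used. Alternatives were DESeq2 1.42.0, no replicate block, no gene filter, the older dispersions, other limits on *Sftpc* (200 and 500 per 10000) and mitochondrial share (5% and none), no *Ager* UMI, thinned cells, *Sftpc* left out of the counts, the 5% of cells with most UMIs left out, a fit of only 2 classes and each batch left out. Results of some genes are not reported here.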

Additional observations from a re-analysis of the deposited data

Results flagged for a closer look

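Of the 1940 cells of Batch 2 over the mitochondrial limit, which no comparison used, 360 met all the other limits for members (18.6%, Wilson 95% interval 16.9% to 20.3%), and they were singled out as signal outside the cells compared. They had a median of 3403 UMIs and a median mitochondrial share of 12.8%. *Sftpc* stood at 686 UMIs per 10000 in them, *Sftpb* at 46.2, *Napsa* at 20.2, *Abca3* at 3.17, *Lamp3* at 4.31, *Scd1* at 3.70, *Cxcl15* at 15.8 and *Lyz2* at 8.57. In members of Batch 2 these genes stood at 687, 47.4, 22.9, 2.95, 3.67, 3.86, 16.7 and 10.5 in the same order. In Batch 1, where 1 cell was over the limit, no such cell was found.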

How the results depend on the processing

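Against all other cells, without a replicate block 537 genes were higher and 1030 lower, DESeq2 gave 746 and 1116, cells thinned to 1000 UMIs 907 and 1016, and a mitochondrial limit of 5% 618 and 781. Against AT1-gated cells, 55 were higher and 56 lower with no replicate block; 177 were higher with a *Sftpc* limit of 500 per 10000, and 290 in a fit of only the 2 classes. Against cells rich in *Sftpc* and *Ager*, DESeq2 gave 4 higher and 94 lower, the fit of only 2 classes 102 and 280, thinned cells 1 and 35, and no gene filter 7 and 71; the number lower was 43 and 0 with *Sftpc* limits of 200 and 500, 48 with the mitochondrial limit of 5%, 49 without the 5% of cells with most UMIs and 0 with no replicate block. The share of members was 10.6% with the *Sftpc* limit of 500, 9.21% and 13.5% with mitochondrial limits of 5% and none, and 3.27% with no *Ager* UMI. Thinned to 1000 UMIs, the share of members with a UMI was 96.8% for *Sftpb* in Batch 2, 47.2% and 25.8% for *Abca3*, 87.0% and 86.8% for *Napsa* and 49.7% and 29.0% for *Lamp3*. For named genes, 1999 values kept their direction and, where a test was run, their side of the threshold. Of these, 158 without replicate 1 and 158 without replicate 2 were compared by direction alone. Of the rest, 127 were no longer called, 14 became called and 3 changed sign. Sign changes were seen for *Hopx* against all other cells, at 0.80 (log2) without replicate 1 and -0.19 without replicate 2. They were also seen for *Nkx2-1* against AT1-gated cells, at -0.25 without replicate 1, 0.59 without replicate 2 and -0.0019 in thinned cells. The causes were not tested. With 1 batch left out there is no test, so no count of genes can be given.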
